A study of Mus musculus with 36 samples.

Results

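The whole-genome bisulfite sequencing of mouse liver described here held 4875 windows of 500 bp in which the C3 strain had lost most of its reads. A window counted when it lay on an autosome, contained 5 or more listed CpGs, and had a read depth of at least 0.7 in the B6 animals and at most 0.2 in the C3 animals, each depth being expressed relative to the mean autosomal depth of that animal (relative depth, where 1 is the autosomal mean). Of 1496157 windows with 5 or more CpGs, 0.326% met this rule. The windows were chosen by the measured depth of the 6 B6 and 6 C3 animals, so the depth difference between B6 and C3 there is a description, and no test of it is given.

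The study compared livers of C57BL/6N mice (B6), C3H/HeN mice (C3) and their reciprocal hybrids, B6C3F1 with a B6 dam and a C3 sire and C3B6F1 with a C3 dam and a B6 sire. Each strain or cross was represented by 3 males and 3 females, and the B6 and C3 animals were the sires and dams of the F1 animals, 3 families being taken from each cross. The F1 daughters were virgins, as the paper states. All 24 animals were killed at 20 weeks of age, the parents having been mated at 10 weeks, and none carried an engineered allele or received an agent. Brothers and sisters of a family share parents, so the F1 animals are not fully independent of each other. Mean depth over the autosomal CpGs ran from 19.4 to 32.8 reads per animal.

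In bisulfite sequencing, an unmethylated cytosine is read as T and a methylated cytosine is read as C, so every aligned read that covers a CpG adds 1 methylated or unmethylated count, and the sum of both is the depth. A read that spans several CpGs is counted at each of them, and read numbers below are such counts. Reads of both strains were aligned to mm9, which is an assembly of a C57BL/6 genome. C3 reads can therefore be missing where C3 lacks the sequence, where C3 differs too much for its reads to align within the mismatch limit, or where its reads align elsewhere, and depth alone cannot tell these apart. Inbred mouse strains descend from a small pool of mixed ancestors, and pairs of strains alternate along each chromosome between blocks that are nearly identical and blocks that carry many single-nucleotide variants (SNVs). An F1 animal carries 1 B6 and 1 C3 chromosome of each pair.

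The table listed a CpG only where the dinucleotide was present in mm9 and in the study's own B6 and C3 sequences, with support from at least 75% of reads. A listed CpG did not need a C3 count in this table: the member with the lowest C3 depth, chr7:126342001-126342500, had 4 C3 counts over 5 listed CpGs, so at least 1 of these CpGs had no count in any C3 animal. CpGs that the criterion left out were not counted here.

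The sequences of 6 windows are printed because the results below turn on them. The first 3 come from large clusters of windows on chromosomes 8, 15 and 4, the next from an exon of Fanca, and the last 2 from the windows with the largest methylation difference between B6 and C3 (near Fgl1) and the only called difference between F1 and B6 (near Psg28), both chosen after their values were seen. Each is the middle 300 bases of its window on the plus strand of mm9, and capitals mark the CpGs that the table listed. The lower-case cg dinucleotides are CpGs of mm9 that did not pass the listing criterion.
Rbpms cluster, chr8:34940601-34940900: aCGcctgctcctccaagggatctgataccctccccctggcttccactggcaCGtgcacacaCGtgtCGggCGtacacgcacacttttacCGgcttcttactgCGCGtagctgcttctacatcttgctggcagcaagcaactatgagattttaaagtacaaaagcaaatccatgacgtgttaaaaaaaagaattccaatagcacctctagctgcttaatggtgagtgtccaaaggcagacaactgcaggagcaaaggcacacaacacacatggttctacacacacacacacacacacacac
Cbx7 start-site window, chr15:79764101-79764400: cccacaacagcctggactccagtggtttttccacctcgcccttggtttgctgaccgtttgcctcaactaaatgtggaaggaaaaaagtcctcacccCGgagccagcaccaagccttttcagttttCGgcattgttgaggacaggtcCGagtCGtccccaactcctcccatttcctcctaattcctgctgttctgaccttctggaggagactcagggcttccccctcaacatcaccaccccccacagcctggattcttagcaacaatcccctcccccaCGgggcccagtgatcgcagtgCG
Gm17167 and Gm13301 cluster, chr4:42101601-42101900: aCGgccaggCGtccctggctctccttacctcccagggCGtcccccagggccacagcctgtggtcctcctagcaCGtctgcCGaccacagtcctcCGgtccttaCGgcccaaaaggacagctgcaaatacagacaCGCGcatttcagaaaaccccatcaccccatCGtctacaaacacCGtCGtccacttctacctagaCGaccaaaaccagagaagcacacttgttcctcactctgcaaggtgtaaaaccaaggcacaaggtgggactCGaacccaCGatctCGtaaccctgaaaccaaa
Fanca exonic window, chr8:125840101-125840400: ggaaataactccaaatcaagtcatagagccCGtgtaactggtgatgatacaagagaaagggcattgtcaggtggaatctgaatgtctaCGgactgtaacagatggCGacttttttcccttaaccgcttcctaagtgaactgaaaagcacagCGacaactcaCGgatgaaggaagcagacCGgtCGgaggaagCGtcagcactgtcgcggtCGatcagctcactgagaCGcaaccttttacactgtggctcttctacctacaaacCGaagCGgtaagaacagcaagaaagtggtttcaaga
Window near Fgl1, chr8:42303101-42303400: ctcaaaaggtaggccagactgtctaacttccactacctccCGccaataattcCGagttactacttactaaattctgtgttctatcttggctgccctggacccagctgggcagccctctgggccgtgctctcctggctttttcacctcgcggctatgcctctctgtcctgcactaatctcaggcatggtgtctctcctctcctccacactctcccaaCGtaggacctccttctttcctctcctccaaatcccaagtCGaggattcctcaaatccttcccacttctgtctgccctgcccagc
Intergenic near Psg28, chr7:18989101-18989400: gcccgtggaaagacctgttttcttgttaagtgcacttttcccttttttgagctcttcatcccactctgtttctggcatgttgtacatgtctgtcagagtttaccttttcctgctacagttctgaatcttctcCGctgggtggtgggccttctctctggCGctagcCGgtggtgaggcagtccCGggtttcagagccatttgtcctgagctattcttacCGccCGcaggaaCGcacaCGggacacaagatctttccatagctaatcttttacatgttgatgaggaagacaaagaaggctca
The Fanca stretch listed 12 of its 15 CpGs and the Cbx7 stretch 6 of 9, whereas the chromosome 4 stretch listed all 16.

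Depth at the 4875 windows separated B6, C3 and F1 animals without overlap, while the 2 crosses overlapped each other. The median relative depth over the windows ran from 0.938 to 0.979 in the 6 B6 animals, with a median of 0.957. In the 6 C3 animals it ran from 0.124 to 0.142, with a median of 0.131. In the 6 B6C3F1 animals it ran from 0.544 to 0.560 with a median of 0.558, and in the 6 C3B6F1 animals from 0.540 to 0.559 with a median of 0.554. Every F1 animal lay between the parental strains, and each animal of every strain was near 1 when all windows were taken, with medians of 1.02 to 1.05 for B6 animals and 1.02 to 1.06 for C3 animals. No C3 animal exceeded a relative depth of 0.440 at any of the windows, and no B6 animal fell under 0.306.

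**Figure D1:**
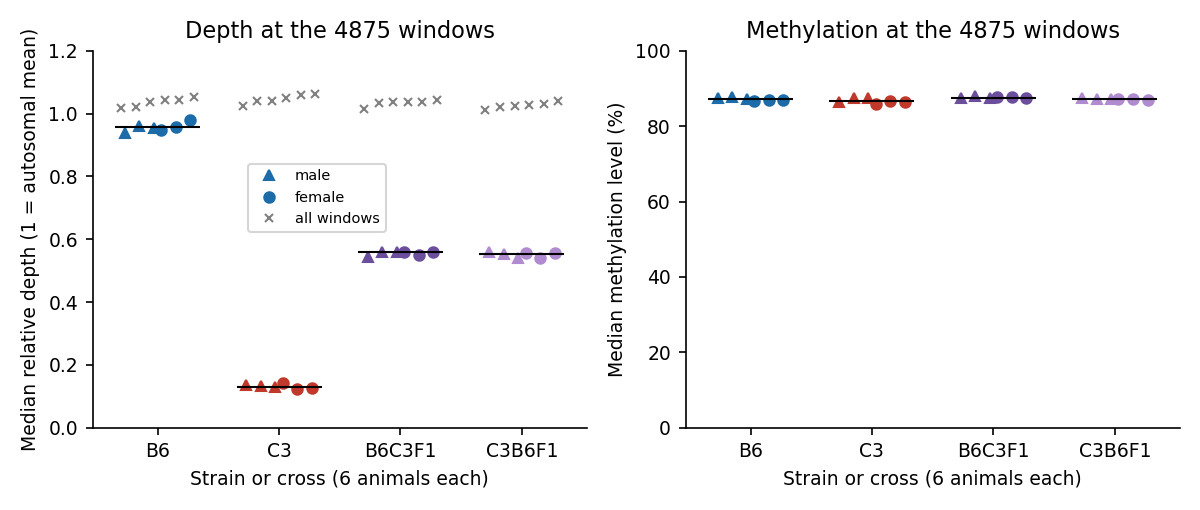
Median relative depth (left) and median methylation level in percent (right) over the 4875 windows, 1 point per animal (triangles, males; circles, females), with the median of each strain or cross as a bar; crosses give the median depth of each animal over all windows. C3 animals sit between 0.124 and 0.142 in depth and F1 animals lie between the parents, while the methylation medians run from 86.0 to 87.9% over the 24 animals.

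The depth cutoff of 0.2 fell within a continuous slope and not at a gap. Among windows with B6 depth of at least 0.7, 358 had a C3 depth up to 0.05, 843 lay from 0.05 to 0.1, 1503 from 0.1 to 0.15 and 2171 from 0.15 to 0.2. A further 2938 windows lay just beyond, from 0.2 to 0.25. Just inside the cutoff, the window at chr17:4249001-4249500 had a C3 depth of 0.19998 and a B6 depth of 1.29, and just outside it the window at chr11:94018501-94019000 had 0.20003 and 0.837. At the B6 limit, the window at chr6:49102501-49103000 was inside with 0.70001 and the window at chr4:33193001-33193500 was outside with 0.69987. With the strains exchanged, the same rule found 71 windows with lost B6 depth, in which the median depth was 0.0181 in B6, 1.15 in C3 and 0.599 in the F1 animals.

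The rule did not use the F1 animals, and their depth lay between the 2 parental means at all 4875 windows. The median ratio of F1 to B6 depth was 0.578 over the windows, with quartiles of 0.542 and 0.614, beside a median of 1.01 over all windows. Taken animal by animal, this median ratio ran from 0.569 to 0.582 in the 6 B6C3F1 animals and from 0.557 to 0.579 in the 6 C3B6F1 animals, so the 2 crosses overlapped. The ratio fell between 0.4 and 0.6 at 3205 windows (65.7%), between 0.6 and 0.8 at 1669 and under 0.4 at 1. At 3352 windows every F1 animal lay above every C3 animal and below every B6 animal, a pattern that 0.905% of all windows showed. The rule itself places the parents apart at these windows, so that count is a description.

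The F1 ratio moved with the depth that C3 retained. Where C3 depth was up to 0.05, the median ratio was 0.525 and 95.3% of windows lay between 0.4 and 0.6. It was 0.548 where C3 depth was 0.05 to 0.1, 0.573 where it was 0.1 to 0.15, and 0.601 in the uppermost class, where 49.5% of windows lay between 0.4 and 0.6. The mean of the 2 parental depths, the midparent, had medians of 0.493, 0.515, 0.543 and 0.569 in the same classes, and the F1 depth had medians of 0.505, 0.519, 0.551 and 0.576.

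**Figure D2:**
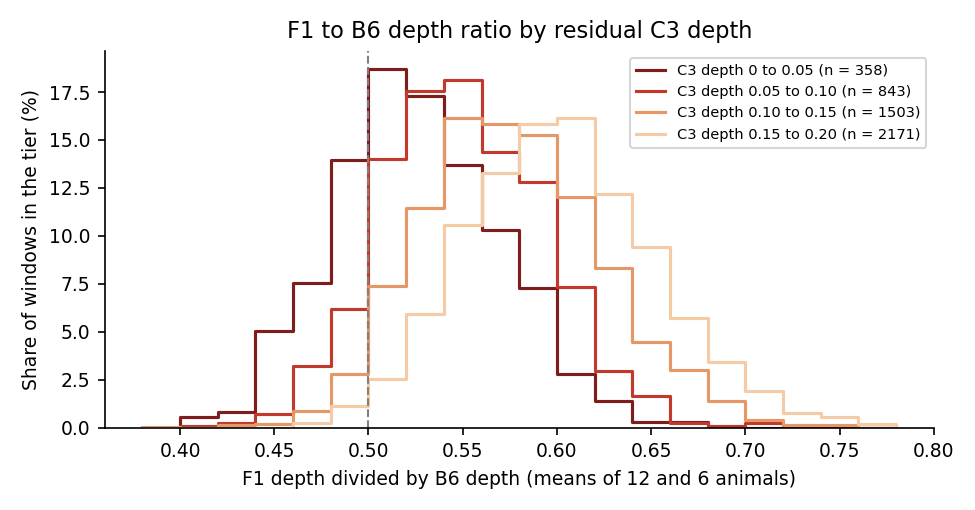
Share of windows (vertical axis, percent of each class) by the ratio of F1 to B6 depth (horizontal axis) for 4 classes of residual C3 depth; the dashed line marks 0.5. The class with the least C3 depth centres at 0.525 and the class with the most at 0.601.

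To test depth in animals that had not chosen the windows, the rule was applied to the 6 sires alone, which gave 4930 windows (0.33% of all windows), 4259 of them among the 4875. The median over these windows was 0.131, 0.131 and 0.138 in the 3 C3 sires and 0.132, 0.134 and 0.148 in the 3 C3 dams. The 3 B6 dams had 0.941, 0.958 and 0.976, and the 6 F1 daughters lay from 0.542 to 0.562. The dams by themselves met both limits of the rule at 3762 of the 4930 windows (76.3%), beside 0.338% of all windows.

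In limma's moderated test with Benjamini-Hochberg adjustment over all 1496157 windows, B6 dams were above C3 dams by at least 2-fold at 4917 of the 4930 sire-chosen windows and below at 0, beside 2.82% of all windows called in the same direction. The median difference was 2.44 on the log2(relative depth + 0.05) scale. With no limit on the fold, the 6 F1 daughters were above the C3 dams at 4908 windows (4.23% of all windows) and below the B6 dams at 3327 (1.4% of all windows), with median log2 differences of 1.69 and -0.74. Leaving out 1 B6 dam reduced the last count to 1462, 1140 or 938 for B6 females 1, 2 and 3. Every daughter was below every B6 dam at 4263 windows (4.48% of all windows) and above every C3 dam at 4850 (5.31% of all windows).

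No window differed between the F1 daughters and the midparent of the dams by 0.2 or more on the linear scale at an adjusted p under 0.05 in limma, neither among the 4930 (0 windows) nor over all windows (0.0%). At an unadjusted p under 0.05, 193 of the 4930 windows were above the midparent and 115 below, 6.25% together, beside 4.28% of all windows. The median difference from the midparent was 0.0072 and its quartiles were -0.0331 and 0.0457, and 90.5% of the windows lay within 0.1 of it. The direction of the cross made no called difference in depth: of the 4875 windows, 0 differed by 2-fold between B6C3F1 and C3B6F1 in limma. Over all 1496157 windows 1 was called (6.68e-05%), so the 0 is no particular result about the 4875. At an unadjusted p under 0.05, 157 windows were higher in B6C3F1 and 93 were higher in C3B6F1, 5.13% together beside 7.21% of all windows.

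The windows lay in SNV-rich surroundings. Within 5 kb on either side they had a median of 44 listed SNVs, with quartiles of 31 and 57, beside a median of 1 over all windows. Only 67 windows (1.37%) had no SNV within that distance, compared with 47.4% of all windows. Inside the windows the median was 1 SNV and 41.9% had none, beside 77.9% of all windows. Where C3 depth was up to 0.05, listed SNVs numbered 1.60 per kb inside the windows and 4.09 per kb in the flanks, and in the class from 0.15 to 0.2 they numbered 3.91 and 4.43. These SNVs came from separate whole-genome sequencing of the 2 strains. Whether missing C3 reads also lowered the number of SNVs listed inside the windows was not tested.

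Across all 1344692 windows with B6 depth of at least 0.7, C3 depth declined as SNVs accumulated. The median ratio of C3 to B6 depth was 1.05 in windows with no SNV, 0.941 with 2 or 3, 0.828 with 4 or 5 and 0.729 with 6 to 8. The share of windows that met the rule was 0.199% with no SNV, 0.964% with 2 or 3 and 1.68% with 6 to 8. It was 1.44% with 9 to 12 (40 of 2780 windows) and 2.15% with 13 or more (2 of 93 windows). With SNVs counted in the flanks, this share went from 0.0107% at 0 SNVs to 1.4% at 25 to 49 and to 3.46% at 75 or more. The median ratio of F1 to B6 depth went down with it, from 1.02 to 0.874.

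**Figure D3:**
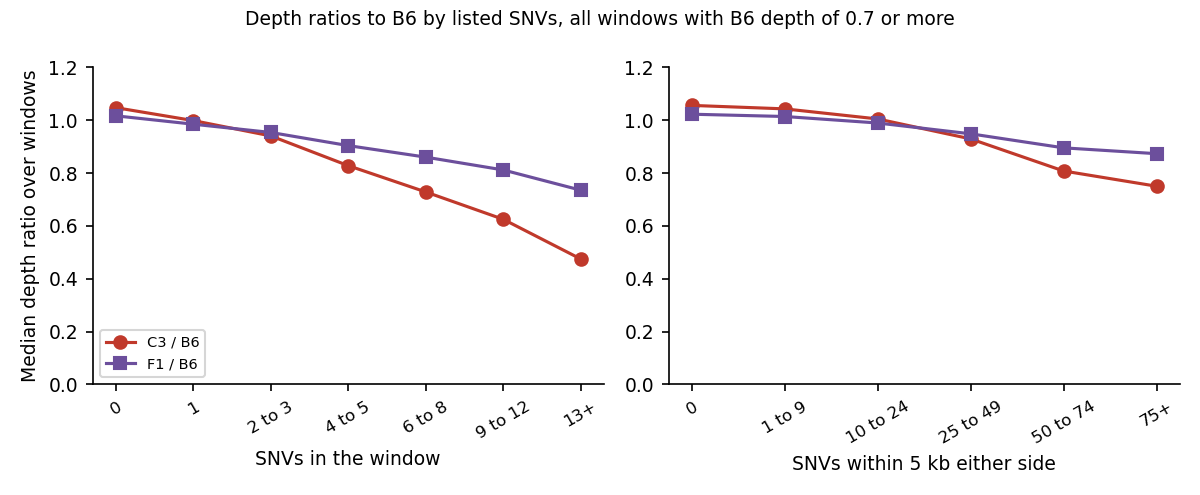
Median ratio of C3 to B6 depth (red) and of F1 to B6 depth (purple) over all windows with B6 depth of 0.7 or more, by the number of listed SNVs in the window (left) and within 5 kb on either side (right). Both ratios go down as SNVs accumulate, from 1.05 to 0.475 for C3 and from 1.02 to 0.736 for F1 on the left. The last class on the left, 13 or more SNVs, holds 93 windows.

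The loss of depth was narrow. Around the centres of the 4517 windows with C3 depth above 0.05, mean C3 depth was 0.142 in the central bins of 250 bp, 0.475 and 0.458 in the bins that begin 250 bp away, and 0.785 and 0.781 at the edges, close to 5 kb away. B6 depth stayed between 0.961 and 1.00 in all bins. A low-depth run started from all listed CpGs of a window, whatever their single depths. It was extended on each side while the next listed CpG had a mean C3 depth of at most 0.2. CpGs above 0.2 at its ends were dropped. B6 depth was not checked along it, and stretches without listed CpGs were spanned. This run had a median length of 383 bp, with quartiles of 217 and 670. It exceeded 1 kb at 608 windows (12.5%), 2 kb at 169 and 5 kb at 62.

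Around the 358 windows with C3 depth up to 0.05, the central bins had 0.0315 and 0.0316, as the choice of these windows fixed, and the bins that begin 500 bp away had 0.540 and 0.523 beside 0.629 and 0.614 around the other windows. Listed SNVs were at 1.24 and 1.97 per kb in the 2 central bins compared with 4.2 per kb at the left edge and 4.16 at the right edge. Around the other windows they were at 3.56 and 3.54 per kb in the central bins beside 4.06 and 4.22 at the edges. The CpGs that the table listed were also incomplete: the windows listed a median of 83.3% of the CpGs of mm9, and every CpG in 22.6% of windows, compared with 88.9% of all windows.

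**Figure D4:**
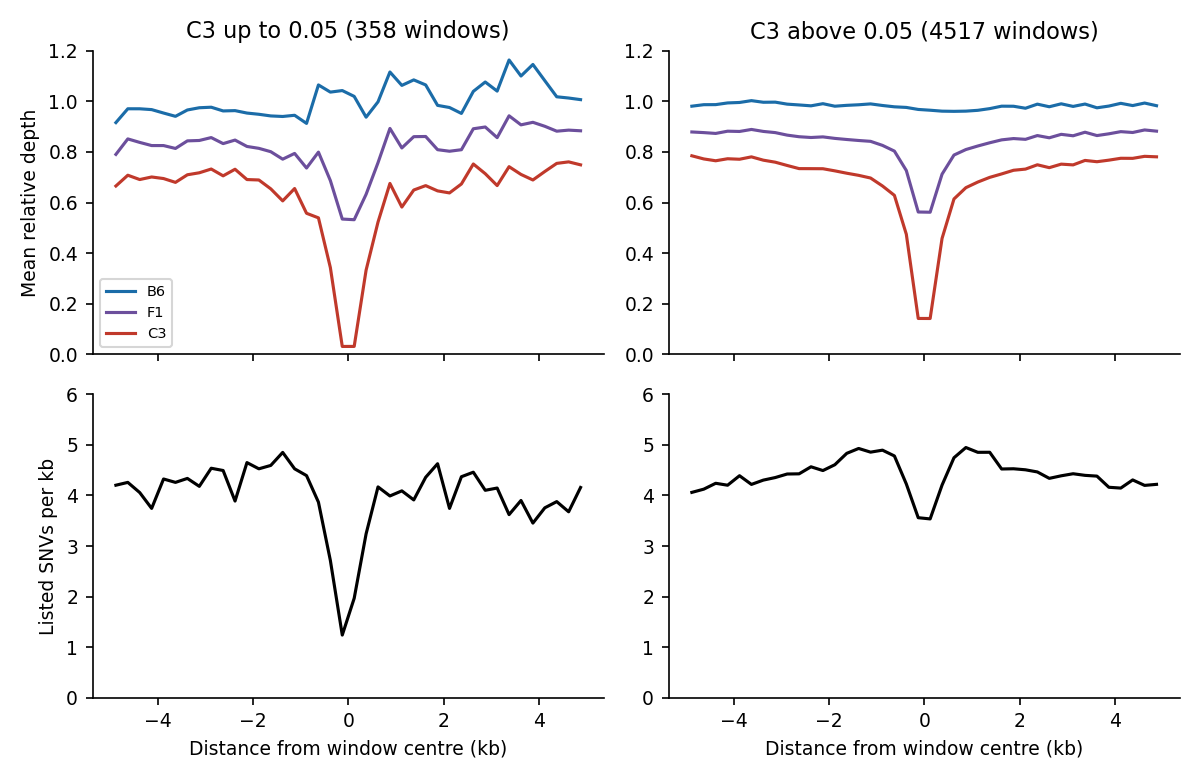
Mean relative depth of B6, F1 and C3 over listed CpGs (top) and listed SNVs per kb (bottom) by distance from the window centre in kb, in bins of 250 bp, for 358 windows with C3 depth up to 0.05 (left) and 4517 with more (right). C3 depth climbs most within 1 kb of the centre, F1 depth dips less, and SNVs dip to 1.24 and 1.97 per kb in the central bins on the left.

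The 67 windows with no SNV within 5 kb had longer runs, although B6 depth was not checked along a run. Their low-depth runs had a median length of 1331 bp, beside 379 bp for the other 4808, and exceeded 5 kb at 14 of the 67 (20.9%) compared with 48 of the 4808 (0.998%). They listed a median of 100% of the CpGs of mm9, and their median F1 to B6 ratio was 0.567 beside 0.578. Chromosome 7 held 16 of them and chromosome 12 held 14. The 2 longest runs, 85428 bp around chr12:23960501-23961000 and 53117 bp around chr4:146312501-146313000, belonged to this group and held 105 and 55 listed CpGs. The 2 windows themselves overlapped the pseudogene Gm10476 and the long non-coding RNA gene Gm17452. A window in Nlrp1b, an inflammasome sensor gene whose copies differ between mouse strains, also had no SNV within 5 kb. Its run of 16060 bp held 11 listed CpGs. The window in Trim34a, of a family of antiviral ubiquitin ligases, had 3 SNVs nearby and a run of 40791 bp that rested on 6 listed CpGs.

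The lowest C3 depth of all was at chr7:126342001-126342500, 14113 bp from Gpr139, where the 6 C3 animals together had 4 reads over 5 CpGs and the 6 B6 animals had 709. The window holds 15 CpGs of mm9, and the 5 listed ones lie within 21 bp, so its depths describe a small part of it. There, B6 depth ran from 0.598 to 1.02 with a median of 0.840 and C3 depth from 0 to 0.0262 with a median of 0. F1 depth ran from 0.228 to 0.675 with a median of 0.402. The next lowest was at chr14:87729501-87730000, 86390 bp from Tdrd3, with 5 C3 reads beside 1187 B6 reads. At 208 of the 4875 windows at least 1 C3 animal had no read.

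At 3 adjoining windows, chr13:120277501-120279000, B6 depth was several times the autosomal mean. They begin 311 bp from 3110070M22Rik and were the only members with B6 depth above 2. In the third of them, the 6 B6 animals ran from 7.31 to 8.16 with a median of 7.82, and the 6 C3 animals ran from 0.0643 to 0.125 with a median of 0.0778. The 6 B6C3F1 animals ran from 3.49 to 4.21, whereas the 6 C3B6F1 animals ranged from 1.72 to 4.32. C3B6F1 male 2 was the lowest F1 animal in each of the 3 windows, at 1.30, 0.940 and 1.72, and C3B6F1 female 1 was the next lowest, at 1.90, 1.32 and 2.76. The other 4 C3B6F1 animals ran from 3.35 to 4.32 in the third window.

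How many windows stood alone depended on the joining distance. Joined when no more than 10 kb apart, they formed 3894 clusters, of which 3209 held 1 window, 498 held 2 and 187 held 3 or more. The 1666 windows in clusters of 2 or more were 34.2% of the total. Single windows were 65.8% of the total at this distance, 82.3% when joined within 2000 bp and 37.9% (1850 windows) when joined within 50000 bp, where the largest cluster held 22 windows rather than 9. By chromosome, the share of tested windows ran from 0.193% on chromosome 16 to 0.485% on chromosome 4, which held 470 windows. Of 2417 intervals of 1 Mb, 1193 held at least 1 window, and 181 of them (7.49% of all) held 50% of the windows. The interval with most windows was chromosome 4 from 133000001 to 134000000 with 46 windows of 1140 tested, 4.04%.

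The largest cluster held 9 windows over 44000 bp at chr8:34939501-34983500, within Rbpms, an RNA-binding protein gene, and 220 SNVs were listed in its span. Mean depth over its windows ran from 0.902 to 1.02 in the 6 B6 animals with a median of 0.999, from 0.0841 to 0.133 in the 6 C3 animals with a median of 0.115, and from 0.480 to 0.614 in the 12 F1 animals. The cluster at chr15:79748001-79771000 spanned Cbx7, a Polycomb chromodomain protein gene, with 8 windows. Its 6 C3 animals ran from 0.0964 to 0.113 and its 6 B6 animals from 0.813 to 0.915, with no F1 animal outside 0.414 to 0.509. A further cluster of 8 windows lay at chr8:124319001-124340500 over Klhdc4 and Gm20388, and another at chr11:88874501-88898000 over Trim25, a ubiquitin ligase of antiviral signalling, and Dgke, a diacylglycerol kinase.

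The cluster at chr4:42093501-42102500 differed from these in sequence context. It held 7 windows, which together listed 103 CpGs. The cluster spanned 9000 bp over the transcript Gm17167 and the pseudogene Gm13301, yet a single SNV was listed in its span. C3 depth over its windows ran from 0.0945 to 0.122 and F1 depth from 0.510 to 0.601. The cluster at chr8:72160001-72173000, 10162 bp from Zfp964, a zinc-finger gene, had no SNV in its 6 windows and 27 in its span, with the lowest mean C3 depth of the 10 largest clusters at 0.0769. The cluster at chr4:141374501-141395000 held 7 windows over Cela2a and Ctrc, which encode pancreatic elastase and chymotrypsin C. The remaining 3 held 6 windows each, in Wasf2, an actin regulator, in Ccdc85c and in Rtkn2. Mean F1 to B6 ratios of the 10 clusters ran from 0.541 to 0.585.

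The position of the windows relative to genes is given as shares, with no test and no matching on SNVs or CpG content. An exon of a protein-coding gene was overlapped by 297 windows (6.09%, beside 14.1% of all windows), an intron alone by 1882 (38.6%, beside 37.2%), and 2696 (55.3%, beside 48.7%) were intergenic. A protein-coding start site lay in 47 windows (0.964%, beside 1.68%). Exonic windows touched 273 genes, 26 of them with 2 or more windows and 2 with 3, namely Fanca and Cela2a. Expression was not analysed here. Among the start-site windows, the lowest C3 depth was 0.0147 at Fcgr3, an activating antibody receptor of myeloid cells, where B6 depth was 0.773 and no SNV was listed in the window. Zfp112 followed Cbx7 with 0.0554, and Aass, an enzyme of lysine breakdown, had 0.0854.

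At Fanca, a subunit of the Fanconi anaemia DNA repair complex, the window chr8:125840001-125840500 had depths of 0.783 to 1.24 in the 6 B6 animals, 0.0556 to 0.152 in the 6 C3 animals and 0.285 to 0.674 in the 6 C3B6F1 animals. Its 2 other exonic windows had mean C3 depths of 0.154 and 0.180. At Cbx7, the window chr15:79764001-79764500 holds the start site, and mean depth there was 0.783 in B6, 0.0230 in C3 and 0.412 in F1. At Mtrr, which regenerates methionine synthase, the start-side window chr13:68720501-68721000 kept 754 C3 reads over 33 CpGs, with C3 depth from 0.0376 to 0.218 over the 6 animals, while a second exonic window kept 27.

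The other genes had 2 exonic windows each. Acadl, the long-chain acyl-CoA dehydrogenase, had windows with mean C3 depths of 0.0860 and 0.121. Adh6a, an alcohol dehydrogenase, had 0.131 and 0.110, and Dao, the D-amino acid oxidase, had 0.108 and 0.117. Rps3, a ribosomal protein gene, had 0.104 and 0.105, and Ppih, a spliceosomal cyclophilin, had 0.196 and 0.131 in 2 adjoining windows around its start. The others were 9030624J02Rik, Hmmr, Gm10654, Arhgap8, Ttc15, Zmynd8, Ssh1, Mob3b, Nomo1, Gm6132 and Tubg2, in which the window with less C3 depth had from 0.0121 (9030624J02Rik) to 0.105 (Tubg2), and whose F1 to B6 ratio was lowest at 0.455, in Gm10654.

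Genes that vary between mouse strains in copy number or sequence were counted by family, a window being assigned when it lay within 5 kb of a gene. Of 33 families, 14 had at least 1 window, 18 had none and 1 (Csprs) matched no annotated gene. The Fc-gamma receptor genes, which bind antibody on myeloid cells, had 5 windows of 133 tested (3.76%), 3 of them at Fcgr3, and their median C3 depth was 0.0734. The H2 genes of the major histocompatibility complex had 12 of 398 (3.02%), with 3 each at H2-Aa, H2-Ab1 and H2-K2. Against 0.326% of all windows, the zinc-finger genes had 57 of 11828 (0.482%), the Trim genes 10 of 2076 (0.482%) and the olfactory receptors 12 of 3110 (0.386%). The natural killer receptor genes of the Klra, Klrb and Klrc type had 2 of 183, the Nlrp and Naip genes 2 of 469, the Ifi203 to Ifi205 group 1 of 42, the antigen receptor variable segments 4 of 351, the defensins 2 of 349, the cytochrome P450 groups 2 of 1116, and the Hist, Tlr and Tas2r genes 1 each. No window lay near the Vmn1r and Vmn2r, Mup, Ugt, Gbp and Iigp, Sirpb, Skint, Speer, Scgb, Serpin, Prame, Sp100, Slco, Wdfy1, Ly6, Cd209, Mrgpr, Krtap or Amy genes. The windows tested near these families ran from 9 (Sirpb) and 19 (Skint) to 816 (Serpin) and 1556 (Vmn1r and Vmn2r), and where few were tested a count of 0 carries little information. Mean SNV counts within 5 kb were 28.0 around the Fc-gamma receptor genes and 27.2 around the H2 genes. Among the families with no window they ran from 0 around the Cd209 and Sp100 genes to 65.5 around the Skint genes, with 27.5 around Wdfy1, 18.7 around the Ly6 genes and 15.6 around the Slco genes, and the part of SNVs in these counts was not tested.

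Methylation was not used by the rule. The windows were highly methylated, like most of the liver genome: mean B6 methylation exceeded 80% at 3446 windows (70.7%, beside 65.4% of all windows), lay from 20 to 80% at 1237 and was under 20% at 192 (3.94%, beside 4.74%). The median methylation level over the windows ran from 86.6 to 87.8% in the 6 B6 animals, from 86.0 to 87.5% in the 6 C3 animals, from 87.5 to 87.9% in the 6 B6C3F1 animals and from 86.9 to 87.3% in the 6 C3B6F1 animals. With all reads of the windows pooled, so that windows with more reads weighed more, the order was different: the 6 C3 animals ran from 76.2 to 77.0% and lay below all 18 others, which ran from 78.0 to 79.3% in B6, from 78.3 to 79.3% in B6C3F1 and from 78.4 to 79.0% in C3B6F1. F1 and B6 methylation differed by no more than 5 percentage points at 4635 windows (95.1%, beside 96.2% of all windows). The low C3 depth set by the rule may limit how far F1 can stand from B6 at these windows.

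B6 females were dams and F1 females virgins, so among females strain and breeding history cannot be told apart. F1 animals were compared with B6 in limma at the 4761 windows that had at least 30 reads in each of the 18 animals. A difference of at least 20 percentage points was called at 1 of them, higher in F1, beside 0.0403% of all windows, and without a limit on the difference 22 were higher and 33 lower in F1, beside 8948 higher and 5994 lower (1.01% together) over all windows. Without B6C3F1 female 3, 2 windows were called. The rule keeps C3 depth low, at a median of 0.131 beside 0.957 in B6. If F1 reads follow these depths, few of them come from the C3 chromosome. A strain difference would then seldom reach 20 percentage points in F1. The 1 call was 0.021% of the 4761 windows, beside 0.0403% of all windows, and says little about methylation. Whether C3 depth limited the count was not tested. The called window was chr7:18989001-18989500, in intergenic sequence 18387 bp from Psg28, a pregnancy-specific glycoprotein gene. Methylation there ran from 30.0 to 43.1% in the 6 B6 animals with a median of 35.0%, from 44.5 to 73.0% in B6C3F1 with a median of 65.5%, and from 53.6 to 75.9% in C3B6F1 with a median of 67.4%. The mean difference was 28.5 percentage points (adjusted p = 2.97e-06 in limma), and no F1 animal overlapped B6. The 6 C3 animals ran from 70.6 to 100% over 104 reads in all, at a mean C3 depth of 0.0576. Both values of 100% rested on few reads, 1 in C3 female 2 and 8 in C3 female 3, and the other 4 animals had 15 to 34 reads each.

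Between the crosses, 0 of the 4761 windows differed in methylation by 20 percentage points in limma (0.000883% of all windows). Only 13 of all windows were called, so the 0 is no particular result about the 4761. At an unadjusted p under 0.05, 380 were higher and 168 lower in B6C3F1 than in C3B6F1, 11.5% together. Over all windows 71434 were higher and 31490 lower, 6.99% together.

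The C3 reads that remained carried enough counts for a test at 3116 of the 4875 windows, those with at least 10 reads in each of the 12 parents. The windows with the least C3 depth were therefore left out. In limma, B6 and C3 methylation differed by at least 20 percentage points at 240 of the 3116 (7.70%), beside 0.542% of all windows. B6 was higher at 134 (0.275% of all windows) and lower at 106 (0.267% of all windows). Raising the minimum to 30 reads left 279 windows, of which 21 were called, beside 7215 calls over all windows. At the 134 windows, median methylation was 81.8% in B6 and 49.6% in C3, and at the 106 it was 44.6% and 76.0%. The C3 values rested on a median of 165 reads over 6 animals, and their spread from lowest to highest animal had a median of 24.3 percentage points, compared with 9.49 in B6. Residual C3 reads are those that aligned to mm9, and whether they come from the same copy of the sequence as the missing reads was not tested.

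Among the 5 windows with the largest difference towards B6, the first lay in an intron of Klra17, a gene of the Ly49 receptor family. The next was 44779 bp from Bach2, a transcriptional repressor of lymphocytes, and the others were in Gm13271, near Mettl17 and near Slc35f5. In Klra17, at chr6:129803501-129804000, B6 methylation ran from 85.2 to 94.0% and C3 methylation from 4.76 to 38.8%, a mean difference of 72.3 percentage points (adjusted p = 2.09e-09 in limma). Near Bach2, at chr4:32280501-32281000, B6 animals lay between 89.0 and 94.1% and C3 animals between 15.4 and 30.8%. The other 3 windows differed by 61.4, 60.7 and 60.4 percentage points.

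The largest difference in the other direction was 2491 bp from Fgl1, a fibrinogen-like protein secreted by hepatocytes, at chr8:42303001-42303500. Methylation there ran from 8.19 to 13.7% in the 6 B6 animals with a median of 10.5%, and averaged 90.6% ± 7.04 (SD, n = 6) in the C3 animals with a median of 90.4% (adjusted p = 7.90e-14 in limma). The F1 animals ran from 7.09 to 35.5%. The windows near Gm10775 and Gm6728, in an intron of Bfsp2 and in an intron of Rin2 followed, with B6 below C3 by 74.6, 65.2, 56.2 and 49.6 percentage points. In none of these 5 did any B6 animal overlap a C3 animal.

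Of the windows in the 10 largest clusters and the 20 genes named above, an exonic window of Cela2a, chr4:141378001-141378500, had 76.1 to 84.7% in B6 and 9.52 to 40.6% in C3 (adjusted p = 1.15e-08 in limma), and an exonic window of Acadl, chr1:66884501-66885000, had 68.8 to 76.5% in B6 and 27.3 to 67.9% in C3 (adjusted p = 0.00127 in limma). The 2 groups did not overlap at either, beside 211 of the 240 called windows without overlap. Of the 71 windows in the 10 clusters, 5 were called, in 4 clusters. The share called was 7.70% of the 3116 tested windows and 0.542% of all windows. How many of the 71 had enough reads to be tested was not counted, so the 5 give no share. A Dao window, chr5:114474501-114475000, had 32.2 to 42.9% in B6 and 69.2 to 86.7% in C3, but had too few C3 reads to be tested. The Mtrr and Ppih start windows had low methylation, at 0.690% and 0.320% in B6.

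At the 240 windows, F1 methylation stayed near B6. It was closer to B6 than to C3 at 239 and lay between the parents at 232. The absolute distance of the F1 mean from the B6 mean had a median of 4.63 percentage points, and from the midparent 10.1 percentage points. From the mean of the parents weighted by their depth in the window it had a median of 1.54 percentage points, and the weighted mean was closer to F1 than the unweighted midparent at 228 windows. These comparisons share the B6 and C3 animals with the rule and with the choice of the 240 windows, so they are given as values. The rule also holds B6 depth at 0.7 or more and C3 depth at 0.2 or less. If F1 reads follow these depths, most of them come from the B6 chromosome. Closeness of F1 to B6, and to the depth-weighted mean, would then be largely set by the rule. The same counts were not made over all windows called between B6 and C3, so 239, 232 and 228 have no background share. The window near Psg28 had too few C3 reads to be tested between B6 and C3, although the B6 and C3 animals did not overlap there, and its F1 mean of 63.9% stood beside a depth-weighted parental mean of 37.9% and an unweighted midparent of 62.0%. The unweighted midparent gives C3 female 2, with its 1 read, the same weight as every other C3 animal.

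**Figure D5:**
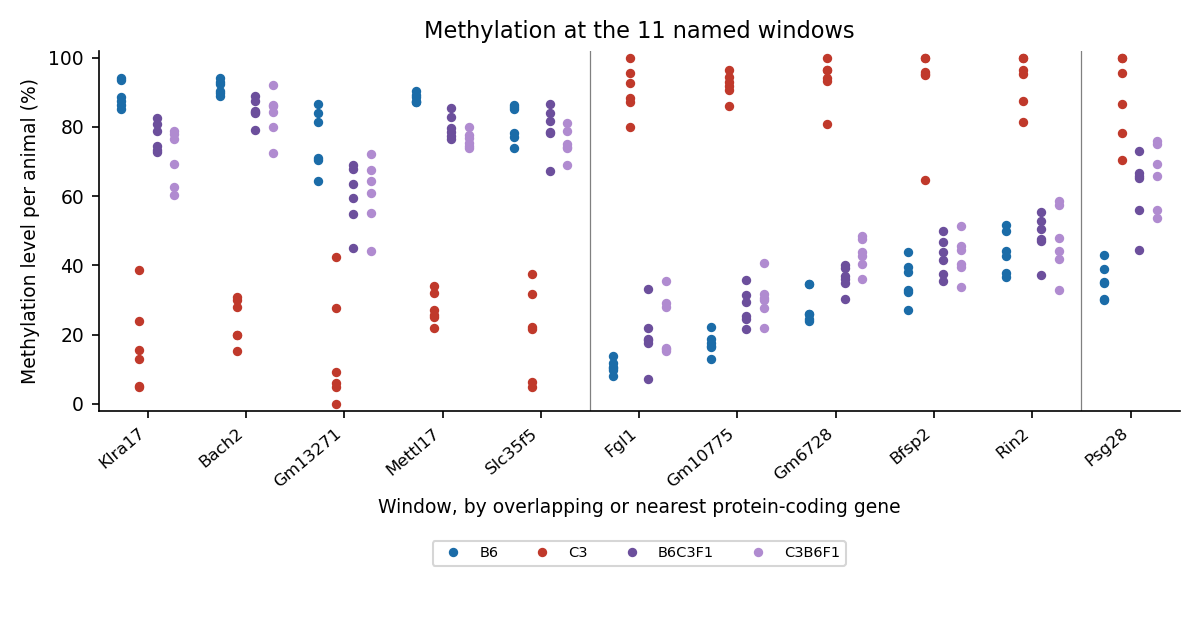
Methylation level in percent for each of the 24 animals (points, coloured by strain or cross) at the 11 named windows: 5 with B6 above C3 (left), 5 with B6 below C3 (middle) and the window near Psg28 called between F1 and B6 (right). At the first 10 the F1 means lie nearer B6 than C3, and at Psg28 the single F1 animals lie from 44.5 to 75.9%, above all 6 B6 animals.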

How the data were processed

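The deposited values were counts of methylated and unmethylated reads per CpG for 24 liver libraries (C57BL/6N, C3H/HeN and reciprocal F1, 3 males and 3 females each). Per the labels and the study's methods, the authors aligned bisulfite reads to mm9 with Bismark 0.7.8 and Bowtie 0.12.8 under a mismatch limit, removed duplicates with Bismark's own tool, and listed a CpG only where mm9 and both strains carried it. A C3 read that differed too much from mm9 could not be aligned, which bears on every C3 depth here. Single-nucleotide variants were those that the study listed between C3 and B6 from separate whole-genome sequencing. The 12 samples of the FOXA1 experiment were not used here.

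Counts were summed in fixed autosomal windows of 500 bp with 5 or more CpGs. Relative depth is the mean count per CpG divided by the animal's autosomal mean. Methylation was tested as log2((methylated + 1)/(unmethylated + 1)) and depth as log2(relative depth + 0.05), except the midparent, which was tested on the linear scale, in limma 3.58.1 (R 4.3.3) over all windows that passed the read minimum, with Benjamini-Hochberg adjustment at 0.05. The tests were run on simulated data with known changes. Those data had intermediate methylation and, before the change, depths above those of C3 here. They do not show how the tests perform at high methylation or low depth. The p-values measure the spread between these animals, which for depth includes more than counting error. Genes came from the GENCODE vM1 annotation of mm9 (NCBIM37), the build of the counts. Windows and lists were chosen with earlier results of these data known. Named were the 10 largest clusters, 20 of the 26 genes with 2 or more exonic windows (ties in number were ordered by the lowest C3 depth), and the 5 windows with the largest called methylation difference in each direction. Sequences were taken from windows with most listed CpGs that held no annotated untranslated region in the printed stretch. Those near Fgl1 and Psg28 were instead chosen by their methylation differences. The lowest-depth, longest-run and start-site windows, and those with B6 depth above 2, were chosen after their values were seen. Python 3.11.15 with numpy 2.4.6, pandas 2.3.3 and matplotlib 3.10.9 was used. Alternatives covered depth limits, CpG minimum, window grid, depth scaling, read minimum, difference limit, a quasi-binomial model, a replicate block and leaving out each animal.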

Additional observations from a re-analysis of the deposited data

Results flagged for a closer look

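Of 104 groups of 6 animals examined, 8 had 1 animal set apart from the other 5 by a gap larger than Dixon's 95% critical value, and chance alone gives about 1 group in 20. At the Trim25 and Dgke cluster on chromosome 11, the lowest C3 animal had a mean depth of 0.110 beside a median of 0.179, the highest B6C3F1 animal had 0.654 beside 0.547, and the highest C3B6F1 animal had 0.582 beside 0.515. At the Cbx7 cluster the lowest C3B6F1 animal had 0.414 beside a median of 0.478. At the Ccdc85c cluster the lowest B6C3F1 animal had 0.422 beside 0.510. In the first of the 3 high-depth windows on chromosome 13, the highest B6 animal had 7.09 beside a median of 5.86. In methylation, the lowest C3 animal had 80.8% beside a median of 95.3% near Gm6728, and 64.7% beside 95.6% in the intron of Bfsp2.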

How the results depend on the processing

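The number of windows followed the limits of the rule. It was 1201 with a C3 limit of 0.1 and 11635 with a limit of 0.3, with median F1 to B6 ratios of 0.542 and 0.613. It was 7714 when the median over CpGs replaced the mean, and 631 with 10 or more CpGs. With a difference limit of 10 percentage points, F1 and B6 methylation differed at 6189 windows in all and at 16 of the 4761. With 30 reads in every parent, B6 and C3 methylation differed at 7215 windows in all and at 21 of 279. The other 40 of 49 alternatives stayed within 1.5 times the main count or within 0.00827, the SD of the ratio over F1 animals. Leaving out 1 animal at a time gave 4844 to 4998 windows, ratios of 0.576 to 0.580, 1 to 2 calls between F1 and B6 methylation (2 without B6C3F1 female 3) and 238 to 276 between B6 and C3. For the sire-chosen windows it gave 4913 to 4918 calls between the dams, 4857 to 4906 between F1 daughters and C3 dams, 938 to 3761 between F1 daughters and B6 dams, and 0 against the midparent. Replicate numbers did not pair the animals by the criterion that every pair correlate above 0.1: same-numbered animals had median correlations of 0.0064 in methylation, 0.0457 in the depth of dams and daughters and 0.0416 in F1 depth, beside -0.0026, -0.0243 and -0.0163 for other numbers. The replicate block gave 240 calls between B6 and C3, 1 between F1 and B6, 3523 between F1 daughters and B6 dams, and no call moved by more than 1.5 times. The quasi-binomial model gave 169 calls between B6 and C3. Depth limits C3 methylation, since 3116 of the 4875 windows had 10 reads in every parent.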
